A study of Mus musculus with 6 samples.

Results

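The E2F family and the pocket proteins are described here through 10 genes, namely 6 E2F genes (E2f1, E2f2, E2f3, E2f4, E2f7 and E2f8), the dimer partner gene Tfdp1, and the pocket protein genes Rb1, Rbl1 and Rbl2. They were chosen by symbol out of 55335 gene identifiers in the count table, and all 10 passed the filter on low counts. E2f5, E2f6 and Tfdp2, the other family members with a row, are given beside them. The 3 P14 TIL libraries came from donor CD8+ T cells sorted out of B16-GP33-41 tumors, and the 3 P14 Sp libraries from donor cells sorted out of spleens of the same tumor-bearing mice. Donor cells of both groups carry the P14 transgenic T cell receptor, which recognizes the GP33-41 peptide that the melanoma cells express. They were transferred on day 11 after tumor implantation, and the labels give both groups as C57BL/6 and 10 weeks old. The comparison asks how donor T cells in the antigen-bearing tumor differ from donor T cells in the spleen of the same mice.

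E2F proteins bind promoters of genes needed for DNA replication and cell division. E2F1, E2F2 and E2F3 are known as activators, E2F4 and E2F5 act mostly as repressors together with pocket proteins, E2F6 works with Polycomb proteins, and E2F7 and E2F8 are repressors that need no dimer partner. The pocket proteins RB, p107 (Rbl1) and p130 (Rbl2) hold E2F proteins in check until cyclin-dependent kinases phosphorylate them. In T cells this switch is thrown when an antigen drives a resting cell into the cycle, and it is controlled largely at the protein level, which transcript counts do not show.

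All libraries were of similar depth, with 35095261 to 38263483 counts in total, and member genes had 292 to 10100 counts in a library. Summed T cell markers were at 4759 to 5012 CPM (counts per library total, scaled to 1000000) in tumor and 5508 to 5586 CPM in spleen, so the labelled cell type was present in every library. The 10 B cell markers summed to 11.0 to 13.4 CPM in tumor and 577 to 590 CPM in spleen, with Cr2 at 0 in all tumor libraries. The 10 macrophage markers summed to 41.3 to 43.5 CPM in tumor and 267 to 284 CPM in spleen. The 8 melanoma markers summed to 9.68 to 10.9 CPM in tumor and 19.4 to 21.4 CPM in spleen. Most of that was Pmel, at means of 8.54 CPM in tumor and 19.8 CPM in spleen. Other melanoma markers leaned to tumor at low levels, except Mitf, whose libraries overlapped. Dct was at 0.439, 0.470 and 0.470 CPM in tumor, against 0, 0.0266 and 0 CPM in spleen. Tyrp1 totalled 64 counts in tumor and 0 in spleen, Mlana 19 and 2, Sox10 16 and 2, Tyr 5 and 2, and S100b 3 and 1. For the 10 dendritic cell and MHC class II genes the sums were 81.4 to 88.0 CPM in tumor, where Clec9a and Siglech were at 0, and 1785 to 1825 CPM in spleen. Markers of NK cells summed to 14.8 to 20.5 CPM in tumor and 8.38 to 9.83 CPM in spleen, and those of stroma to 52.3 to 57.1 CPM in tumor and 86.4 to 88.5 CPM in spleen. Nearly all of the stroma sum was Pecam1, with a tumor mean of 54.8 CPM and a spleen mean of 86.2 CPM. The highest value of any other stroma marker was 0.655 CPM, for Kdr in spleen replicate 3. Genes of the mitochondrial genome took 0.313 to 0.466% of counts in tumor and 1.10 to 1.19% in spleen. The part of these differences in the results that follow was not tested. In bulk libraries such as these, fewer cells with a transcript and less of it per cell cannot be told apart.

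Within the family, 6 members were higher in tumor (E2f1, E2f3, E2f4, E2f7, E2f8 and Tfdp1) and 4 were lower (E2f2 and the pocket protein genes Rb1, Rbl1 and Rbl2). Calls were made with edgeR's quasi-likelihood test at a Benjamini-Hochberg adjusted p below 0.05 over 19783 genes. Of all genes tested, 70.7% were called, 34.8% as higher and 35.9% as lower, so a call by itself is common in this comparison. For all 10 members the tumor and spleen libraries did not overlap, as for 74.5% of all genes tested. Log2 fold changes (tumor over spleen) ranged in size from 0.20 to 1.08, with standard errors (SE) of 0.05 to 0.10. Against a null of a 1.5-fold change, Tfdp1 and E2f3 were still called higher and E2f2 lower, while 32.4% of all genes passed that test.

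**Figure D1:**
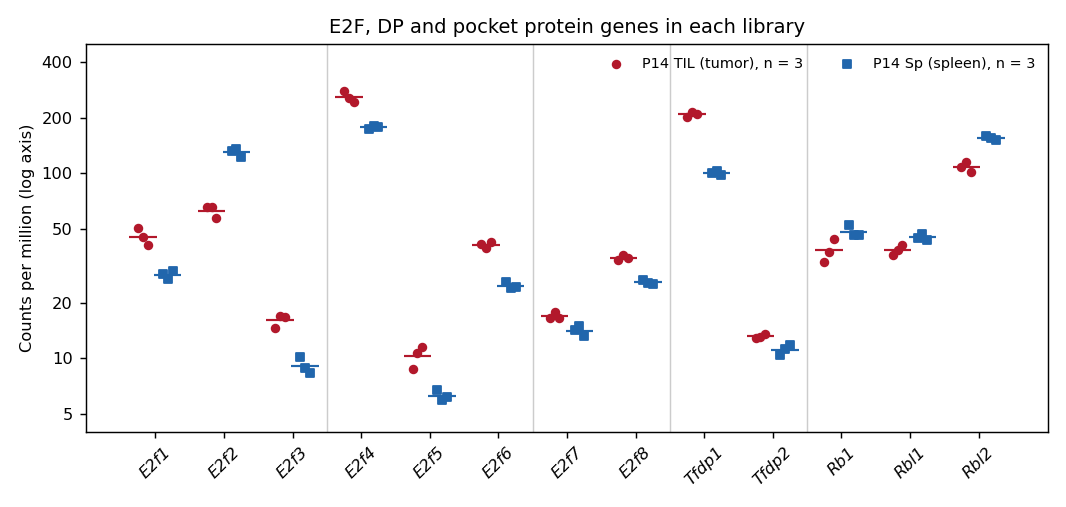
Levels in CPM (log axis) of 13 E2F, DP and pocket protein genes in each library, with P14 TIL as circles, P14 Sp as squares and lines at the means of 3 libraries. Among the activators, E2f1 and E2f3 lie higher in tumor while E2f2 lies lower, at a mean of 62.6 CPM in tumor, against 130 CPM in spleen.

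Promoter sequences from RefSeq (GRCm38.p6, 250 bases before to 50 after the start site) were found for 8 of the 10 members. They are shown for E2f2 and E2f3, activators that moved in opposite directions, and for E2f7, Tfdp1 and Rbl1, which also hold E2F-like letters. Capitals mark the 4 spellings of TTNNCGC in which each N is C or G, searched on both strands, and no matches overlapped in these windows. The windows are chr4:136172024-136172323 on the + strand for the first of the E2f2 windows, chr13:29986014-29986313 on the - strand for E2f3 and chr10:110745189-110745488 on the + strand for E2f7. Those of Tfdp1 and Rbl1 are chr8:13338501-13338800 on the + strand and chr2:157204485-157204784 on the - strand.
E2f2: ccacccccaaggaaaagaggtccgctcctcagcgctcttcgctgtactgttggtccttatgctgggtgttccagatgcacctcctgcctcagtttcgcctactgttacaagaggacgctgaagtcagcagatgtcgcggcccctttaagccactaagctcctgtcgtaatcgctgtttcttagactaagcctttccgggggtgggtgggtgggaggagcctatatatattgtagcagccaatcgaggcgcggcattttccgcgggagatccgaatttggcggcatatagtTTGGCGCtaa
E2f3: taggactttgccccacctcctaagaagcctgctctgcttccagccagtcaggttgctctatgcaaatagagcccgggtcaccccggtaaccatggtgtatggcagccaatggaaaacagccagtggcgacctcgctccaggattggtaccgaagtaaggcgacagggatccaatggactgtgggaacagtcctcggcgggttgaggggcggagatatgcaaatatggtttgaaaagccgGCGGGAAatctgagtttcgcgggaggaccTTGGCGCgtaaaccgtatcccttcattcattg
E2f7: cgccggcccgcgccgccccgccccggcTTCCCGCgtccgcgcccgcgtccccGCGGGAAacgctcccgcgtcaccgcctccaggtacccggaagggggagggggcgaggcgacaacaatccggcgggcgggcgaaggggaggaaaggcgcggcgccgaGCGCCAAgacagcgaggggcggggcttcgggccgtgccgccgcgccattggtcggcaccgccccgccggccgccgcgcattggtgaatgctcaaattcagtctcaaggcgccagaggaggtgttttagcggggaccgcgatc
Tfdp1: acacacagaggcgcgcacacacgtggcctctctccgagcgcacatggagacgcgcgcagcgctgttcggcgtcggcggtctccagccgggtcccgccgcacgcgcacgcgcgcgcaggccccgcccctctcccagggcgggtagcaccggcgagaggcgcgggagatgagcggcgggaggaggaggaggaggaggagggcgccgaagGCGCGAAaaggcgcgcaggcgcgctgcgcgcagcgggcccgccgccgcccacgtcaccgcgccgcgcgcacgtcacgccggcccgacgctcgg
Rbl1: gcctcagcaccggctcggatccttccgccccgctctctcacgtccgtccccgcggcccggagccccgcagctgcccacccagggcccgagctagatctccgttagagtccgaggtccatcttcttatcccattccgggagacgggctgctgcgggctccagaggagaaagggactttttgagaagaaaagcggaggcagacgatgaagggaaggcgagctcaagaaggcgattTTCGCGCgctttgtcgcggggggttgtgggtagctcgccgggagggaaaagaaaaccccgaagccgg

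A match was present for 6 of the 8 members with a window (75.0%), and for 2936 of 27025 genes with a RefSeq promoter (10.9%), counting a gene once if any of its windows matched. E2f7 held 3 matches and E2f3 held 2, both in the window shown, while E2f2, E2f8, Rbl1 and each Tfdp1 window held 1. The Tfdp1 windows overlap, and their match is the same stretch of the genome. Of these members only E2f1 and Rbl2 had none. Of the 3 family genes outside the list, 2 (E2f6 and Tfdp2) had windows, and 0 had a match. The RefSeq start of E2f1 lies 466 bases inside the GENCODE gene model, so its window covers no sequence upstream of that model. The E2f2 window shown ends at 136172323, before the GENCODE gene model begins at 136172394. The list of S phase genes regarded as E2F targets had a match in 17 of 24 genes with a window (70.8%). The list of G2/M genes had one in 2 of 17 (11.8%). The other lists described below ranged from 0 of 3 for E2F turnover genes to 3 of 5 (60.0%) for apoptosis genes linked to E2F1. The letters TTTGAA, known as the CHR element of late cell cycle genes, stood in 12 of the 17 G2/M promoters (70.6%). They stood in 4 of the 8 members (50.0%) and in 20.2% of all genes with a window. E2f2 counts here only through its second window, whose start site lies 8388 bases inside the gene model. Both rising and falling members held E2F-like letters, and a match is a description of sequence, not a site shown to be bound.

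The activators did not move together. E2f1, the best known inducer of S phase entry, was at 50.4, 45.3 and 40.7 CPM in tumor, against 28.7, 26.8 and 29.5 CPM in spleen (log2 fold change 0.71, SE 0.09, adjusted p = 2.4e-05). Every tumor library lay above every spleen library, and the tumor values were the more spread, with a coefficient of variation of 10.6% in tumor and 4.92% in spleen. E2f3 was at 14.6, 17.0 and 16.8 CPM in tumor, against 10.1, 8.92 and 8.32 CPM in spleen, a 1.80-fold rise (log2 fold change 0.85, SE 0.10, adjusted p = 1.2e-05). E2f3 makes 2 forms from separate promoters, and gene-level counts do not separate them.

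E2f2 went the other way, and by more. Its values were 65.4, 65.4 and 57.0 CPM in tumor, against 132, 135 and 123 CPM in spleen, 2.04-fold lower in tumor (log2 fold change -1.03, SE 0.07, adjusted p = 2.3e-07). The highest tumor library was 57.7 CPM below the lowest spleen library. E2F2 is known from knockout mice as a brake on T cell proliferation as well as an activator. It is also expressed in erythroid precursors, whose regulator Klf1 was at 0.137, 0.157 and 0.0553 CPM in tumor, against 2.46, 2.76 and 3.62 CPM in spleen. Summed over all 9 erythroid markers, led by Hba-a1, levels were 248 to 275 CPM in tumor and 213 to 217 CPM in spleen. B cell markers were lower in tumor in the same libraries, 10 of 10, and the part of such cells in the E2f2 difference was not tested.

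The repressor E2F genes were all higher in tumor. E2f4 was at 277, 257 and 242 CPM in tumor, against 173, 180 and 178 CPM in spleen (1.49-fold, or 0.58 on the log2 scale, SE 0.07, adjusted p = 1.1e-05). E2f5, its closest relative, averaged 10.3 ± 1.41 CPM in tumor, against 6.28 ± 0.403 CPM in spleen (SD, n = 3 each; 1.68-fold, edgeR adjusted p = 0.00012). E2f5 shares exon bases with an antisense gene, 1810022K09Rik, at 18.5 ± 5.40 CPM in tumor, against 17.1 ± 1.74 CPM in spleen, which was not called (adjusted p = 0.49). E2f6, the Polycomb-linked member, was at 41.4, 39.4 and 42.3 CPM in tumor, against 25.7, 23.9 and 24.4 CPM in spleen (1.70-fold, adjusted p = 1.2e-06).

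Rises in the atypical repressors were smaller. E2f8 was at 34.1, 36.0 and 35.0 CPM in tumor, against 26.5, 25.6 and 25.1 CPM in spleen (log2 fold change 0.47, SE 0.06, adjusted p = 4.5e-05). E2f7, which acts in pairs with E2F8, was at 16.5, 17.9 and 16.6 CPM in tumor, against 14.2, 15.0 and 13.3 CPM in spleen (log2 fold change 0.30, SE 0.08, adjusted p = 0.0068). The groups of E2f7 were 1.58 CPM apart at their nearest libraries. With the spleen libraries summed into 1 sample, a fit that called 51.2% of all genes tested (24.8% higher and 26.5% lower), its call was lost (adjusted p = 0.12). Both genes share exon bases with antisense models, of which Gm2788, across from E2f8, was at 5.24 ± 0.264 CPM in tumor, against 4.36 ± 0.318 CPM in spleen, and 1700020G17Rik, across from E2f7, was under 0.35 CPM in every library.

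Tfdp1, which encodes the DP1 subunit that most E2F proteins need to bind DNA, showed the largest rise of the 10 members. It was at 202, 215 and 208 CPM in tumor, against 100, 103 and 97.8 CPM in spleen (2.12-fold, or 1.08 on the log2 scale, SE 0.05, adjusted p = 1.2e-08). No gene model overlaps it. Its paralog Tfdp2 rose less, to 13.2 ± 0.376 CPM in tumor against 11.1 ± 0.681 CPM in spleen (log2 fold change 0.27, SE 0.08, edgeR adjusted p = 0.014). Leaving out spleen replicate 1 (adjusted p = 0.076) or summing the spleen libraries (adjusted p = 0.16) ended that call.

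All pocket protein genes were lower in tumor, and Rbl2 carried the clearest difference. Rbl2 encodes p130, the pocket protein that prevails in resting cells, and was at 108, 115 and 102 CPM in tumor, against 159, 154 and 151 CPM in spleen (1.40-fold lower, or -0.49 on the log2 scale, SE 0.06, adjusted p = 2.6e-05). The groups stood 36.3 CPM apart. Rbl2 shares exon bases with the antisense genes Aktip, at 15.3 ± 1.47 CPM in tumor, against 20.2 ± 0.462 CPM in spleen, and Gm45464, at 12.6 ± 1.16 CPM in tumor, against 19.5 ± 0.682 CPM in spleen, both also lower (log2 fold changes -0.37 and -0.60). Whether strand was used in counting is unknown here, so reads of such partners cannot be told apart.

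Rb1, the retinoblastoma gene, was at 33.3, 37.4 and 44.3 CPM in tumor, against 52.3, 46.3 and 46.2 CPM in spleen (log2 fold change -0.31, SE 0.09, adjusted p = 0.012). The groups were 1.91 CPM apart, and the tumor libraries spread more widely than for any other member (coefficient of variation 14.5%). Without spleen replicate 1 the call was lost (-0.25, adjusted p = 0.074), as it was with the spleen libraries summed (adjusted p = 0.12). Genes on the opposite strand share exon bases with Rb1. Lpar6 was at 6.85 ± 1.66 CPM in tumor, against 39.2 ± 1.97 CPM in spleen, and Rcbtb2 at 23.9 ± 2.46 CPM in tumor, against 72.2 ± 1.01 CPM in spleen (log2 fold changes -2.49 and -1.57). Their part in the Rb1 difference was not tested.

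Rbl1, which encodes p107 and is itself an E2F target, had the smallest difference of the 10 members. It was at 36.0, 38.5 and 41.2 CPM in tumor, against 44.8, 46.9 and 43.8 CPM in spleen (log2 fold change -0.20, SE 0.07, adjusted p = 0.017). The groups did not overlap but lay only 2.61 CPM apart. The call was lost without tumor replicate 1 (-0.15, adjusted p = 0.061), without spleen replicate 1 (-0.21, adjusted p = 0.054), without spleen replicate 2 (-0.17, adjusted p = 0.089) and with the spleen libraries summed (adjusted p = 0.19). In every one of these fits the difference kept its sign.

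Levels of different genes were compared per length, as CPM per kilobase of the union of annotated exons. On this scale E2f4 stood far above the rest, at 105 ± 7.24 in tumor and 72.2 ± 1.36 in spleen (SD, n = 3 each). In tumor E2f1 (14.4 ± 1.53) and E2f2 (12.8 ± 0.988) followed with overlapping libraries, then E2f6 (7.25 ± 0.263), E2f8 (6.44 ± 0.175) and E2f5 (5.79 ± 0.789), of which E2f8 and E2f5 overlapped. In spleen E2f2 (26.7 ± 1.29) was clearly second, above E2f1 (8.98 ± 0.442), E2f8 (4.73 ± 0.126), E2f6 (4.35 ± 0.166) and E2f5 (3.52 ± 0.226). E2f3 and E2f7 were the lowest in both tissues, at 2.97 ± 0.238 and 1.89 ± 0.0855 in tumor and 1.68 ± 0.171 and 1.57 ± 0.0931 in spleen, where they overlapped. The order among the middle ranks depends on the length used: per kilobase of the longest transcript, E2f6 took 7.01% of the E2F sum and E2f2 6.78% in tumor.

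**Figure D2:**
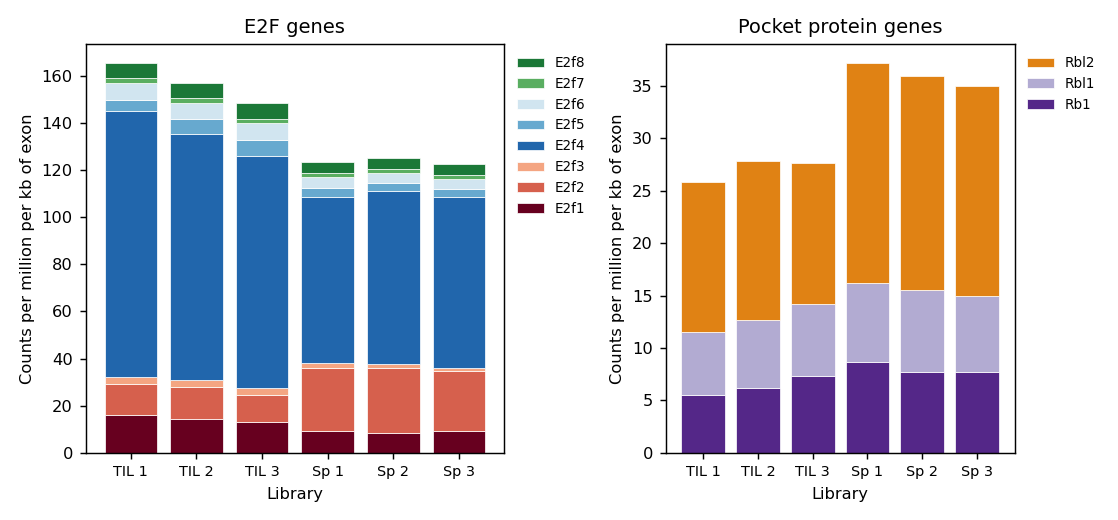
Stacked CPM per kilobase of exon for 8 E2F genes (left) and 3 pocket protein genes (right) in each library, with the P14 TIL libraries left of the P14 Sp libraries. The E2F stack reaches 148 to 165 in tumor and 123 to 125 in spleen, and the pocket stack 25.8 to 27.8 in tumor and 35.0 to 37.2 in spleen.

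Balance within the activator trio differed between the tissues. E2f1 made up 49.8, 46.5 and 46.7% of the summed activator level per kilobase in tumor and 23.9, 22.5 and 25.9% in spleen. E2f2 made up 41.8, 43.4 and 42.2% in tumor and 71.2, 73.2 and 69.8% in spleen. The ratio of E2f1 to E2f2, which no scaling between libraries can move, was 1.19, 1.07 and 1.11 in tumor and 0.335, 0.307 and 0.371 in spleen. These shares describe the members and carry no test.

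Summed per kilobase, the activators were at 30.2 ± 2.26 in tumor and 37.3 ± 1.07 in spleen, while E2f4, E2f5 and E2f6 together were at 118 ± 6.41 in tumor and 80.1 ± 0.965 in spleen. Activators thus took 19.2 ± 0.513% of the E2F sum in tumor and 30.2 ± 0.686% in spleen, and the atypical members 5.32 ± 0.363% in tumor and 5.09 ± 0.122% in spleen. The pocket sum was 27.1 ± 1.12 in tumor and 36.0 ± 1.09 in spleen. The ratio of all E2F to all pocket transcripts was 6.40, 5.65 and 5.36 in tumor and 3.32, 3.48 and 3.50 in spleen. The ratio of activators alone to pocket transcripts was 1.24, 1.11 and 1.0 in tumor and 1.02, 1.05 and 1.03 in spleen, so here the tissues overlapped. Shares of the pocket sum were 21.4, 22.3 and 26.6% for Rb1 in tumor and 23.4, 21.4 and 21.9% in spleen, which overlapped as well.

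The MuvB core (LIN9, LIN37, LIN52, LIN54 and RBBP4) joins p130 or p107 and E2F4 in the DREAM complex, which represses cell cycle genes in resting cells, and later joins B-MYB and FOXM1 to activate mitotic genes. Of the 8 genes listed for this machinery, 4 were higher and 4 lower in tumor, beside 34.8% higher and 35.9% lower among all genes tested. The median log2 fold change was 0.01, against -0.02 for all genes tested. Mybl2, which encodes B-MYB, was at 81.8, 84.2 and 76.9 CPM in tumor, against 29.3, 28.9 and 30.9 CPM in spleen (2.78-fold, or 1.48 on the log2 scale, SE 0.07, adjusted p = 5.6e-09). All tumor libraries exceeded all spleen libraries by far, and Foxm1 rose too, by less (71.9 ± 3.84 CPM in tumor, 56.0 ± 1.95 CPM in spleen, edgeR adjusted p = 0.00025). Core genes were split, with Lin54 (0.39) and Rbbp4 (0.34) higher and Lin9 (-0.32), Lin37 (-0.41) and Lin52 (-0.36) lower on the log2 scale. Mybl1, at means of 0.759 CPM in tumor and 1.17 CPM in spleen, was called lower (-0.59, adjusted p = 0.046) with overlapping libraries, and 9 of 15 alternatives lost that call. With the spleen libraries summed 4 of the 8 genes were called, beside 51.2% of all genes tested in that fit.

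**Figure D3:**
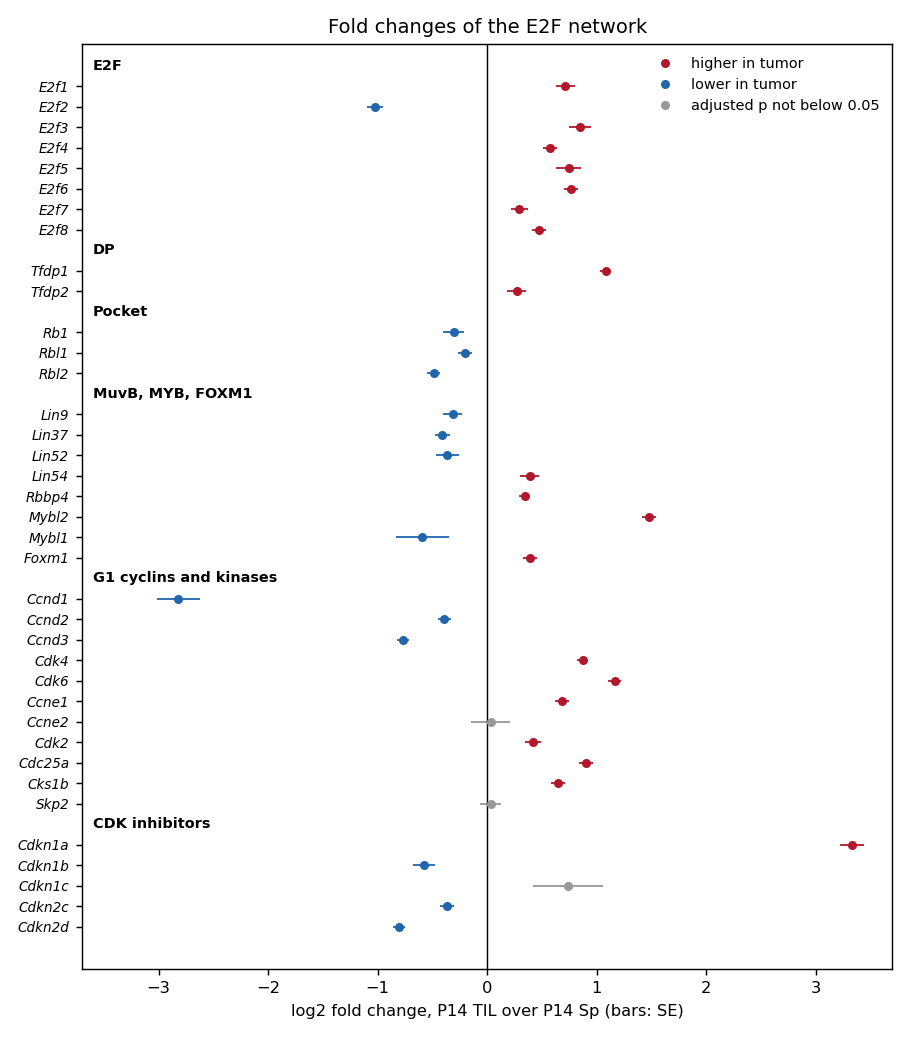
Log2 fold changes (tumor over spleen) with standard errors for the E2F, DP and pocket protein genes, the MuvB, MYB and FOXM1 genes, G1 cyclins and kinases, and cyclin-dependent kinase inhibitors. Among the E2F genes E2f2 (-1.03) is the one lower in tumor, the pocket protein genes lie between -0.49 and -0.20, and all D-type cyclin genes are lower while Cdk4 (0.87) and Cdk6 (1.16) are higher.

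Upstream of the pocket proteins, 6 of 11 G1 cyclin and kinase genes were higher in tumor and 3 lower (median 0.42). Shares over all genes tested were 34.8% higher and 35.9% lower. The 3 lower G1 genes were the D-type cyclin genes, whose products start RB phosphorylation. Ccnd3 was at 297, 297 and 273 CPM in tumor, against 508, 501 and 498 CPM in spleen (log2 fold change -0.77, SE 0.06, adjusted p = 3.5e-07), Ccnd2 had a log2 fold change of -0.39, and Ccnd1 averaged 0.458 ± 0.102 CPM in tumor, against 3.32 ± 0.312 CPM in spleen. Their kinase partners moved the other way. Cdk4 was at 258, 274 and 274 CPM in tumor, against 151, 150 and 148 CPM in spleen, and Cdk6 averaged 84.5 ± 2.99 CPM in tumor, against 38.5 ± 1.30 CPM in spleen (edgeR adjusted p = 4.2e-08 and 1.3e-08). Ccne1 (0.68), Cdk2 (0.42), the phosphatase gene Cdc25a (0.90) and Cks1b (0.65) were higher too, while Ccne2 (0.03) and the ubiquitin ligase gene Skp2 (0.03) were not called. The part of the B cell and myeloid transcripts given above in the lower D-type cyclin genes was not tested.

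Among 7 cyclin-dependent kinase inhibitor genes, 5 were tested, and 1 was higher and 3 lower in tumor (median -0.37). Over all genes tested, 34.8% were called higher and 35.9% lower. Cdkn1a, which encodes p21, was at 43.0, 42.3 and 41.4 CPM in tumor, against 4.95, 3.48 and 4.45 CPM in spleen (10.0-fold, or 3.33 on the log2 scale, SE 0.11, adjusted p = 5.6e-10). Cdkn2d (-0.80) and Cdkn2c (-0.37), inhibitors of CDK4 and CDK6, and Cdkn1b, which encodes p27 (-0.58), were lower. Cdkn1c, under 1 CPM, was not called (adjusted p = 0.058). Too few counts were present to test Cdkn2a, with 4 over the tumor libraries and 6 over spleen, or Cdkn2b, with 14 over the tumor libraries and 28 over spleen.

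S phase genes regarded as E2F targets were higher in tumor for 31 of 33, with 0 lower (median log2 fold change 0.94), beside 34.8% called higher among all genes. Mcm10, a replication initiation factor, averaged 60.1 ± 0.813 CPM in tumor, against 23.3 ± 0.729 CPM in spleen (2.63-fold), and the helicase subunit gene Mcm6 rose 2.14-fold (edgeR adjusted p = 4.5e-09 and 6.0e-09). Slbp (0.16) was among the genes not called. The G2/M genes, many with CHR letters, were higher for 16 of 20 with 0 lower, at a lower median of 0.47. Aurkb and Aurka, mitotic kinases, had log2 fold changes of 0.92 and 0.80, and Cenpe (0.23), Cenpf (0.01), Kif23 (-0.02) and Prc1 (-0.11) were not called. These lists were drawn up with earlier results of the same data known and are no independent evidence of direction.

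**Figure D4:**
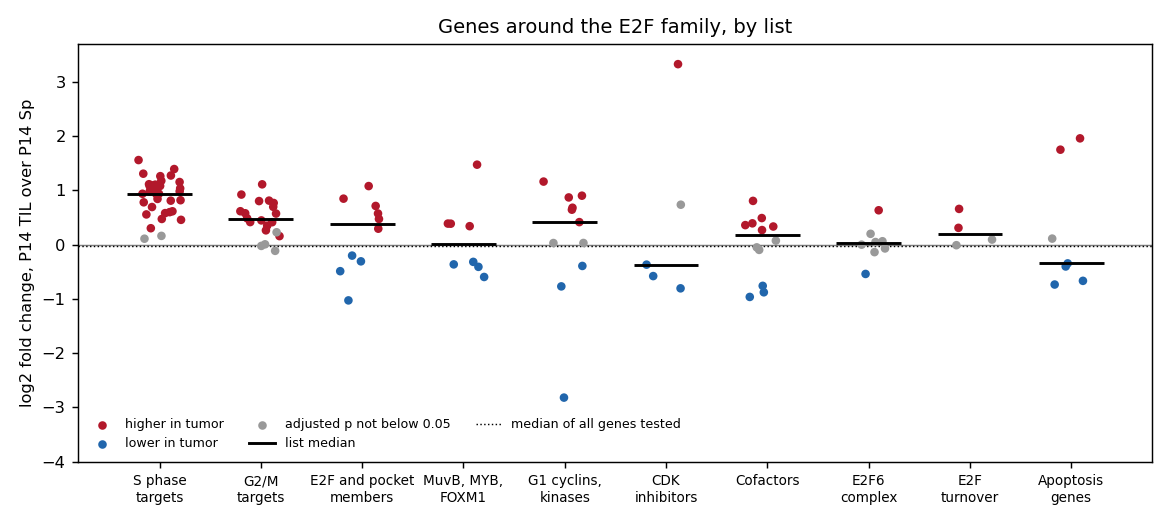
Log2 fold changes (tumor over spleen) of single genes in 10 lists around the E2F family, with thick bars at list medians and a dotted line at the median of all genes tested (-0.02). S phase target genes lie highest (median 0.94), G2/M genes lower (0.47), and the family members fall on both sides of 0.

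Cofactors of E2F and pocket proteins were mixed, with 6 of 12 higher and 3 lower (median 0.17). For this and the lists below, the shares over all genes tested were 34.8% higher and 35.9% lower, or 70.7% called. Suv39h1, a histone methyltransferase recruited by RB, was at 75.8 ± 1.58 CPM in tumor, against 44.2 ± 1.28 CPM in spleen, and the deacetylase gene Hdac1 rose 1.31-fold (edgeR adjusted p = 2.3e-07 and 3.2e-05). Ep300, an acetyltransferase that assists activator E2Fs, was at 70.5 ± 5.03 CPM in tumor, against 122 ± 3.47 CPM in spleen, and Arid4a, which encodes an RB-binding protein, was 1.84-fold lower. Of 8 genes of the E2F6 complex only Pcgf6 (0.63) was higher and Mga (-0.54) lower, and without tumor replicate 1 there were 4 calls in place of 2. Among 4 genes of E2F turnover, Btrc (0.66) and Fbxo5 (0.31) were higher and 0 lower (median 0.20). Fbxo5 encodes EMI1 and is an E2F target itself. Of 7 tested apoptosis genes linked to E2F1, 2 were higher, among them Bcl2l11, which encodes BIM (1.96), and 4 were lower, among them Bbc3, which encodes PUMA (-0.73), with a list median of -0.34.

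Across the 6 libraries, the genes most like Tfdp1 in log2(CPM + 1) were Rnf19a, 9130401M01Rik and Mrps27, with Pearson correlations of 0.9999, 0.9999 and 0.9997. For E2f2 they were Rnf215 (0.9998), Pym1 (0.9997) and Nup153 (0.9995). Of 10679 genes compared, 936 passed a correlation of 0.99 with Tfdp1 and 790 with E2f2. All points share the contrast of 3 tumor with 3 spleen libraries, and the values are a description with no test.

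In mm10 coordinates of GENCODE M21, E2f1 (ENSMUSG00000027490.17) lies on chromosome 2 at 154559407 to 154569892, E2f2 (ENSMUSG00000018983.9) on chromosome 4 at 136172394 to 136196057, and Tfdp1 (ENSMUSG00000038482.11) on chromosome 8 at 13338751 to 13378448. Rbl2 (ENSMUSG00000031666.15) lies on chromosome 8 at 91070057 to 91123844 and Rb1 (ENSMUSG00000022105.6) on chromosome 14 at 73183673 to 73325822. E2f3 (ENSMUSG00000016477.18) lies on chromosome 13 at 29906575 to 29986063, E2f4 (ENSMUSG00000014859.9) on chromosome 8 at 105297663 to 105305370 and E2f7 (ENSMUSG00000020185.16) on chromosome 10 at 110745439 to 110787384. E2f8 (ENSMUSG00000046179.17) lies on chromosome 7 at 48866429 to 48881596 and Rbl1 (ENSMUSG00000027641.13) on chromosome 2 at 157145893 to 157204534. Each value above is a count over the whole gene.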

How the data were processed

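RNA of 3 tumor and 3 spleen libraries was analysed from a table of whole-number counts per gene, as deposited by the authors without normalization. Per the submitters' processing notes, bcl2fastq 2.20.0.422, STAR 2.3, featureCounts and mm10 were used; annotation release, strand setting and treatment of multiply matching reads are unknown: not given in the sources used here. Tumor leukocytes alone passed through Percoll before sorting, per the labels' protocols. Symbols came from GENCODE M21 or, for identifiers absent from it, from a separate list of gene names. Together they gave a symbol to 55154 of 55335 identifiers. Tests were the quasi-likelihood F-test of edgeR 4.0.16 under R 4.3.3 (TMM normalization, 1 factor for tissue, filterByExpr with a minimum count of 10 and total of 15), with Benjamini-Hochberg adjustment over 19783 genes. SE is the absolute log2 fold change over the square root of F. CPM is the count divided by its library total, times 1000000. The procedure was also run on simulated counts with the same spread in both groups. In these libraries the common biological coefficient of variation was 10.5% in tumor and 3.21% in spleen. The simulation therefore does not check the calls at such unequal spreads.

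Pairs of libraries within a group differed beyond counting noise and were kept as separate samples. The chi-square per degree of freedom was 2.19 to 3.48 for spleen pairs and 9.06 to 33.2 for tumor pairs. The labels do not say that they came from separate mice, and p-values therefore reflect the spread among 6 samples alone, possibly a technical one. Description codes end alike within each tissue and differ between tissues; if that marks a batch, it cannot be told apart from tissue. Members, lists, named genes and tests were chosen with earlier results of these data known. All members and all E2F, DP, MuvB, G1 and inhibitor genes could be named. Of other pathway lists the 2 with the smallest p in each direction were named; members spelling out a count of uncalled genes, and the overlapping and marker genes given beside a member, were picked after their values were seen. Alternatives were RLE, upper-quartile and no scaling, 2 other filters, DESeq2 1.42.0, limma-voom (limma 3.58.1), a replicate block, a 1.5-fold null, leaving out each library, and summed spleen libraries. Some genes of these lists are not reported here by name.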

Additional observations from a re-analysis of the deposited data

How the results depend on the processing

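Over 16 alternatives each, no member changed direction, and E2f2, E2f3 and Tfdp1 kept their calls in all of them. Against a null of a 1.5-fold change, 2 members were higher and 1 lower, and calls were lost for E2f1 (0.71, adjusted p = 0.078), E2f4 (0.58), E2f7 (0.30), E2f8 (0.47), Rb1 (-0.31), Rbl1 (-0.20) and Rbl2 (-0.49), a stricter question by construction. Under that null 6417 genes were called in all (32.4%), 2953 higher (14.9%) and 3464 lower (17.5%). By list, it called 1 of 3 other family genes, 1 of 8 MuvB genes, 5 of 11 G1 genes and 2 of 5 inhibitors. It also called 4 of 12 cofactors, 0 of 4 turnover genes, 23 of 33 S phase genes, 6 of 20 G2/M genes and 2 of 7 apoptosis genes. Of 8 E2F6 complex genes 0 were called (the quasi-likelihood test against no change called 2 and DESeq2 2). With the spleen libraries summed, which leaves fewer samples, 10675 of 20833 genes were called (51.2%, with 24.8% higher and 26.5% lower). In that fit 5 members were higher and 2 lower, and E2f7 (0.29), Rb1 (-0.31) and Rbl1 (-0.21) lost their calls, with 4 MuvB genes and 1 turnover gene called. Leaving out 1 library gave 2 to 4 lower members and 2 to 4 E2F6 complex calls. Over all genes, those fits called 12898 to 14709 of 20171 to 20330 tested, with 6549 to 7518 lower. Log2 fold changes were -0.40 to -0.21 for Rb1 and -0.23 to -0.15 for Rbl1. Uncalled Ccne2 changed sign with upper-quartile scaling (-0.021), limma-voom (-0.011), the replicate block (-0.0026) and over the fits without 1 library (-0.18 to 0.26), and Skp2 with upper-quartile scaling (-0.022) and over those fits (-0.010 to 0.10). The cause was not tested.

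Between tumor and spleen libraries of equal replicate number, the correlations of deviations from the group means were -0.026, 0.037 and 0.011. Other pairings were not tried, so these values do not exclude a pairing by mouse. With the replicate number as a block, 6 members were higher and 4 lower, and 13772 genes were called in place of 13983.

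Per kilobase of the longest transcript, activators took 16.9% of the E2F sum in tumor and 26.4% in spleen, E2f4 to E2f6 76.6% in tumor and 67.2% in spleen, and atypical members 6.49% in tumor and 6.38% in spleen. The ratio of activators to pocket transcripts was 0.865 in tumor and 0.774 in spleen, and that of E2f1 to E2f2 1.25 in tumor and 0.375 in spleen.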
